A study of Mus musculus with 6 samples.

Results

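The genes of the proteasome were examined in cholangiocytes, which form the epithelium of the bile ducts. Members were taken by name, as protein-coding genes whose symbol begins with Psm, a letter from a to g and a number. This gave 50 of the 21897 protein-coding genes in the tables, which hold 55401 gene IDs in all. One of them, Psmc3ip, matches by name only and encodes a recombination cofactor, so it was kept out of the classes below (log2 fold change 0.44, PLD over WT, edgeR adjusted p = 0.173). The libraries held polyadenylated RNA of primary mouse cholangiocytes labelled PLD (3 libraries) or WT (3 libraries), both 3 months after tamoxifen. PLD stands for polycystic liver disease, a condition in which bile ducts widen into fluid-filled cysts. The labels name neither the allele nor the Cre driver behind the PLD genotype, and they do not give strain or age at tamoxifen. The cells of both groups were digested from the dissected biliary tree and pulled out with beads against EpCAM, an epithelial surface protein. The labels do not say whether each library came from its own animal, and the p-values therefore cover only the spread among the libraries at hand, which may be technical.

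The proteasome is the large protease that degrades proteins tagged with ubiquitin. Its 20S core is a barrel of alpha rings that gate the entrance and beta rings that hold the cutting sites, and a 19S cap recognises, unfolds and feeds in the tagged protein. Only the beta subunits encoded by Psmb5, Psmb6 and Psmb7 cut. Under interferon, and constitutively in many immune cells, newly built cores can carry the subunits of Psmb8, Psmb9 and Psmb10 in their place, and this form, the immunoproteasome, yields peptides suited to MHC class I. The genes of the standard subunits are known to be switched on together by the factor Nfe2l1 (also called Nrf1) when proteasome activity falls short. The immunoproteasome genes respond to interferon-gamma, in part through the factor Irf1.

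The promoter windows of the exchangeable subunits are printed because the balance between their standard and immune forms is the contrast described in most detail here. Each window is the 250 bases before the start of transcription that RefSeq gives on GRCm38.p6, 5′ to 3′ on the strand of the gene. The set was chosen after the motif matches described here had been seen. Capitals mark a match on either strand to 1 of 4 motifs. The motifs were TGACNNNGC, the core of the antioxidant response element that Nfe2l1 and Nfe2l2 bind, CCAAT, the box of NF-Y, the core of the interferon-stimulated response element, and TTCNNNGAA, the gamma-activated site, an interferon-gamma response element. Psmb5 (chr14:54617996-54618245, minus strand) and Psmb6 (chr11:70525107-70525356, plus strand) held the antioxidant core, Psmb8 (chr17:34197945-34198194, plus strand) the gamma-activated site and Psmb9 (chr17:34187331-34187580, minus strand) a CCAAT box read on the opposite strand. The window of Psmb10 (chr8:105938393-105938642, minus strand) had no match. Psmb7 had no window in the table. Every window except that of Psmb6 overlaps the span of the gene in the deposited annotation, whose starts differ from those of RefSeq.
Psmb5: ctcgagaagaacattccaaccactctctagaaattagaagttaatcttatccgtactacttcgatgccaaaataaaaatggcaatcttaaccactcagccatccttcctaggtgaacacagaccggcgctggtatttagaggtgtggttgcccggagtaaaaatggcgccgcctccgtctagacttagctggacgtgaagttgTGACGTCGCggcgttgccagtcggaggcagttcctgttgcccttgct
Psmb8: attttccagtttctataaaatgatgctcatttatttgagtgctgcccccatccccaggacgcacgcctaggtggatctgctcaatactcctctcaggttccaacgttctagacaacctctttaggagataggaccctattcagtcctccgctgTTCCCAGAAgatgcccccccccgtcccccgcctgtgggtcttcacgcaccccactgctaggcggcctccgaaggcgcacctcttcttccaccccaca
Psmb6: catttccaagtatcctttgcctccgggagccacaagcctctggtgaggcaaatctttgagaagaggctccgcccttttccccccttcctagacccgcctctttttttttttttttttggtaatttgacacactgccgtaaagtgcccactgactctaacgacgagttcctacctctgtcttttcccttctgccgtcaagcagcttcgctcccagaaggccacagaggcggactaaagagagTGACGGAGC
Psmb9: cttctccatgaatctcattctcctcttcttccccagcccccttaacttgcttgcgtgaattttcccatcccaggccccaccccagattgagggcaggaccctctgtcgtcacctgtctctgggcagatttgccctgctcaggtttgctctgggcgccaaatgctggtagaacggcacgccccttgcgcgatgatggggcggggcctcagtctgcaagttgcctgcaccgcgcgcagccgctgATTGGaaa
Psmb10: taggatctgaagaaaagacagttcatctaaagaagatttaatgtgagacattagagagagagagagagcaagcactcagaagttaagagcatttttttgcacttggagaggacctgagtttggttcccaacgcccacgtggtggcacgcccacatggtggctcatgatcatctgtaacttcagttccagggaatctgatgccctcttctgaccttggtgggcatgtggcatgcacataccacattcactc

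RefSeq windows were found for 42 of the 50 members. The antioxidant core occurred in 4 of 27 windows of standard core and cap genes (14.8%: Psmb5, Psmb6, Psmc6 and Psmd12), against 10.2% of 32851 windows of all genes. CCAAT occurred in 37% of the 27 windows, against 33.8% of all windows. The interferon-stimulated element occurred in 7.41% of them, those of Psmb3 and Psmd4, against 2.98%, and the gamma-activated site in none, against 7.02%. No printed window held more than 1 match. These are letter matches in a short window and show neither binding nor its absence.

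The comparison asked how the transcripts of the complex differed between PLD and WT preparations. Genes of the standard core and cap rose together in PLD, and the immunoproteasome genes did not rise with them. Of the 50 members 49 were tested, and Psmb11, with 1 or 2 reads in each library, was below the filter on low counts. By the quasi-likelihood test of edgeR, with p-values adjusted by the Benjamini-Hochberg method over all 15334 genes tested, 33 members were higher in PLD, 2 were lower and 14 did not pass. Of the 2 lower members, Psmb9 and Psma8, Psma8 reached the filter level in the WT libraries only, so its call is no support for a fall. Of all genes tested 27.0% were higher and 28.4% lower, 55.4% in either direction. The members' shares were 67.3% higher and 4.08% lower, so they lay above the background for rises and below it for falls. DESeq2 and limma-voom made the same 33 and 2 calls by number.

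The rises were small and similar in size. Over the 31 standard subunits, 14 of the core and 17 of the cap, 28 rose, 0 fell and 3 did not pass (at an unadjusted p under 0.05, 29 were higher and 0 lower, and 0 fell with DESeq2 or limma-voom). That is 90.3% higher, against 27.0% of all genes tested, and 0% lower, against 28.4%. The log2 fold changes of the 31, PLD over WT, had a median of 0.59 and ran from 0.21 to 0.92. The standard deviation over these genes was 0.18, against 1.27 over all genes tested, whose median was 0.01. All genes tested include low-count genes and the cell type markers given below, and no set of genes of like level was compared. For all 31 the 3 PLD values lay above the 3 WT values. Over the 49 members tested, PLD lay wholly above WT for 39 and wholly below it for 3, and the groups overlapped for 7. Among all genes tested these shares were 33.0% above and 33.2% below, 66.2% in either direction. A change of at least 2-fold, found for 29.0% of all genes, was found for 1 member, the low-count gene Psma8. Of the 49 tested members 47 reached the filter level in all 6 libraries. Besides Psma8, the exception was Psme2b, which reached it in 1 PLD library and the 3 WT libraries. In the plot of fold changes by class the standard subunits form a narrow band above 0, with the immunoproteasome genes below it.

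**Figure D1:**
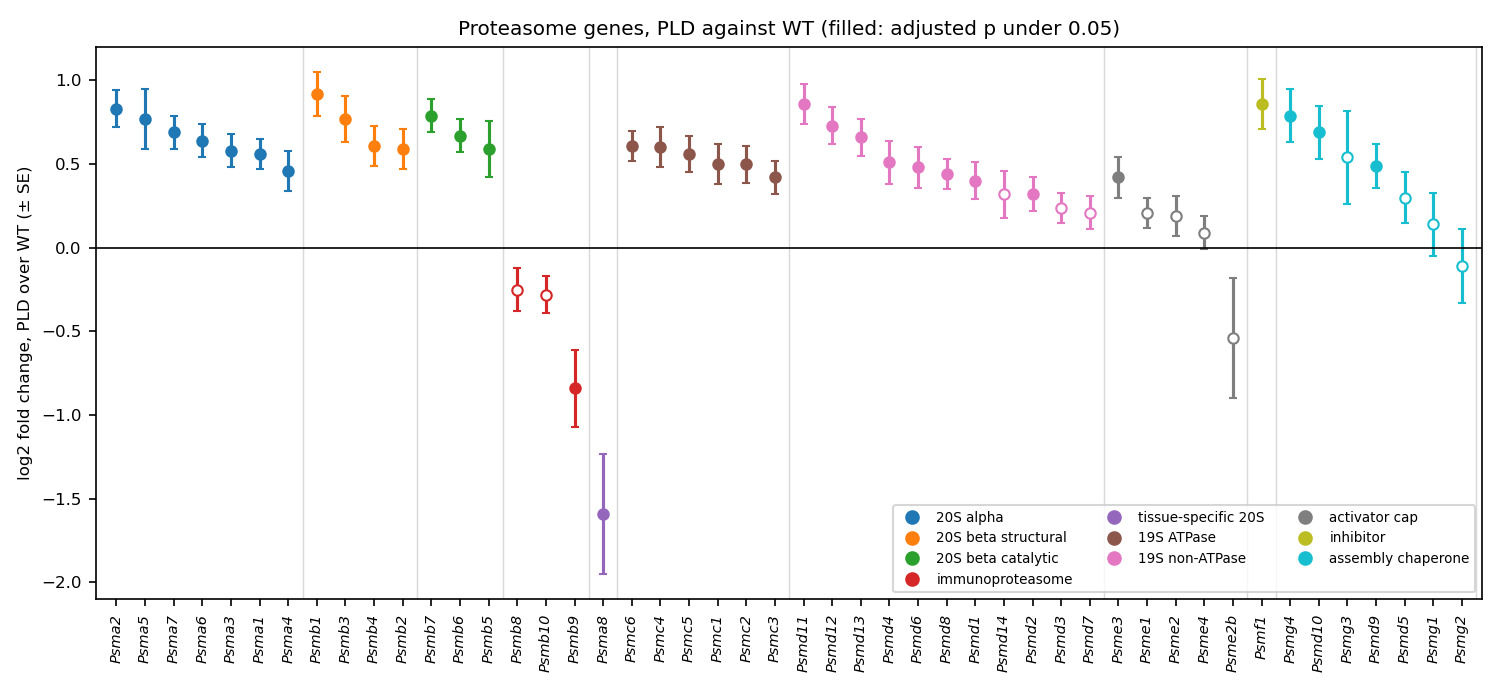
Log2 fold change, PLD over WT, of each tested proteasome gene, grouped by class. Points are genes, bars are standard errors and filled points had an adjusted p under 0.05. The 31 standard core and cap genes lie between 0.21 and 0.92, and the 3 immunoproteasome genes between -0.84 and -0.25.

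All 7 genes of the alpha ring, which forms the gate of the barrel, rose, with log2 fold changes from 0.46 to 0.83 and a median of 0.64. Psma2 (ENSMUSG00000015671.11, mm10 chromosome 13, 14613240 to 14674236) had 106, 102 and 96.3 CPM (the read count scaled to a common library size with TMM factors) in PLD libraries 1 to 3, against 50, 60.9 and 60.1 CPM in WT libraries 1 to 3. The groups did not overlap, and Psma2 had the largest rise of the ring, 0.83 ± 0.11 on the log2 scale (fold change ± SE, edgeR adjusted p = 6.45e-04). Psma4 had the smallest, with 49, 48.4 and 41.7 CPM in PLD and 31.4, 37.7 and 32.1 CPM in WT (0.46 ± 0.12, edgeR adjusted p = 0.0131). Its groups did not overlap, though PLD library 3 and WT library 2 lay close together. Without WT replicate 3 Psma4 no longer passed (0.43, adjusted p = 0.0549). The other 5 genes, Psma1, Psma3, Psma5, Psma6 and Psma7, rose by 0.56, 0.58, 0.77, 0.64 and 0.69.

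The 4 beta subunits without a cutting site, which complete the inner rings, all rose as well, with a median log2 fold change of 0.69. Psmb1 (ENSMUSG00000014769.10, mm10 chromosome 17, 15475021 to 15499751) had 150, 123 and 113 CPM in PLD, against 66.9, 72.6 and 65.3 CPM in WT. The lowest PLD library was well above the highest WT library, and the rise of 0.92 ± 0.13 was the largest of all members (edgeR adjusted p = 7.98e-04). Psmb2 had 72.9, 87 and 67.6 CPM in PLD and 47.5, 50.6 and 53.2 CPM in WT (0.59 ± 0.12, edgeR adjusted p = 0.00443). Its groups were also apart, by a smaller margin. Psmb3 rose by 0.77 and Psmb4 by 0.61.

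The 3 standard cutting subunits rose and their immune counterparts did not. Psmb5, the chymotrypsin-like site (ENSMUSG00000022193.7, mm10 chromosome 14, 54614119 to 54618022), had 12.7, 17.5 and 14.1 CPM in PLD, against 8.78, 10.9 and 9.75 CPM in WT. Its replacement Psmb8 (ENSMUSG00000024338.15, mm10 chromosome 17, 34197721 to 34201454) had 25.4, 28.5 and 34.2 CPM in PLD, against 33.7, 36.1 and 35.1 CPM in WT. Psmb5 was higher in every PLD library than in any WT library, while the groups of Psmb8 overlapped, through PLD library 3. Psmb5 rose by 0.59 ± 0.17 (edgeR adjusted p = 0.021), and Psmb8 did not pass (log2 fold change -0.25 ± 0.13, edgeR adjusted p = 0.134). Both calls changed when certain single libraries were left out. Psmb5 did not pass without PLD replicate 2 (0.46, adjusted p = 0.0725), WT replicate 1 (0.52, adjusted p = 0.0634) or WT replicate 3 (0.59, adjusted p = 0.0671). Psmb8 passed as lower without PLD replicate 3 (-0.36, adjusted p = 0.0452), and its value was -0.15 without PLD replicate 1.

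Psmb6, the caspase-like site (ENSMUSG00000018286.6, mm10 chromosome 11, 70525367 to 70527858), had 121, 128 and 108 CPM in PLD, against 71.9, 77.3 and 74.9 CPM in WT. Psmb9, which takes its place (ENSMUSG00000096727.3, mm10 chromosome 17, 34181987 to 34187764), had 7.5, 11.6 and 14.5 CPM in PLD, against 21.3, 18.9 and 20 CPM in WT. Neither gene overlapped between the groups, and they moved in opposite directions. Psmb6 rose by 0.67 ± 0.10 (edgeR adjusted p = 0.00106) and Psmb9 fell by 0.84 ± 0.23 on the log2 scale (edgeR adjusted p = 0.0157). Psmb9 lies back to back with Tap1, a peptide transporter gene, and stretches of the annotated transcripts of the 2 genes coincide, so some reads cannot be assigned between them. Tap1 itself averaged 57.2 ± 17.3 CPM in PLD and 68.5 ± 6.12 CPM in WT (SD, n = 3 each) and did not pass (log2 fold change -0.26, edgeR adjusted p = 0.328).

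Psmb7, the trypsin-like site (ENSMUSG00000026750.6, mm10 chromosome 2, 38588036 to 38644087), had 91.7, 87.6 and 76.7 CPM in PLD, against 48, 49.5 and 50.8 CPM in WT. Its counterpart Psmb10 (ENSMUSG00000031897.9, mm10 chromosome 8, 105935735 to 105938444) had 34.2, 42 and 38.4 CPM in PLD, against 45.5, 48 and 46.2 CPM in WT. PLD lay wholly above WT for Psmb7 and wholly below it for Psmb10. Psmb7 rose by 0.79 ± 0.10 (edgeR adjusted p = 5.74e-04), whereas Psmb10 did not pass (-0.28 ± 0.11, edgeR adjusted p = 0.0548). Without PLD replicate 2 Psmb10 passed as lower (-0.35, adjusted p = 0.0491). Of the 3 immunoproteasome genes 0 rose and 1 fell (at an unadjusted p under 0.05, 0 were higher and 2 lower). The share lower was 33.3%, near the 28.4% of all genes tested, and the share higher was 0%, against 27.0%. DESeq2 and limma-voom likewise called 0 higher and 1 lower.

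The immune subunit made up a smaller share of each pair in PLD. Per kilobase of exon, Psmb8 was 34.8%, 30.2% and 39.2% of the sum of Psmb8 and Psmb5 in PLD, against 50.5%, 46.8% and 48.9% in WT. Psmb9 was 3.06%, 4.42% and 6.43% of its pair with Psmb6 in PLD, against 13.1%, 11.1% and 12% in WT. Psmb10 was 42.8%, 49% and 50.1% of its pair with Psmb7 in PLD, against 65.5%, 66.1% and 64.6% in WT. In each pair every PLD library was below every WT library. The log2 ratio of immune to standard subunit was lower in PLD by 0.84 for the first pair (mean -0.91 ± 0.29 in PLD and -0.07 ± 0.11 in WT, SD, n = 3 each). It was lower by 1.56 for the second (-4.43 ± 0.56 in PLD and -2.87 ± 0.14 in WT) and by 1.07 for the third (-0.15 ± 0.23 in PLD and 0.92 ± 0.05 in WT). An exact two-sided permutation test gave p = 0.1 for each of the 3 ratios, also after adjustment over the 3, which is the smallest value that 3 against 3 libraries allow. Over all 6 genes together the immune subunits held 21.9%, 24.2% and 27.6% of the level per kilobase in PLD, against 40.6%, 39.3% and 39.5% in WT. With the length trend removed, an alternative added after seeing the data, the first difference was -0.50, the second -1.30 and the third -1.29. Psmb8, Psmb5 and Psmb7 share 14.7%, 12.1% and 11.8% of their exon bases with another gene, and Psmb9 5.79%, and the assignment of reads from those bases is uncertain. Exon length is the union over all annotated transcripts, 3381 bases for Psmb8 and 899 bases for Psmb5. Psmb5 also has a near-identical copy elsewhere in the annotation, and reads that fit both may be missing from its count. The size of the shares within each group is therefore uncertain. These are shares of transcripts, and the make-up of the assembled complex was not measured. The plot of the paired subunits shows the groups apart in 5 of the 6 genes. Among all genes tested the groups were apart, in either direction, for 66.2%.

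**Figure D2:**
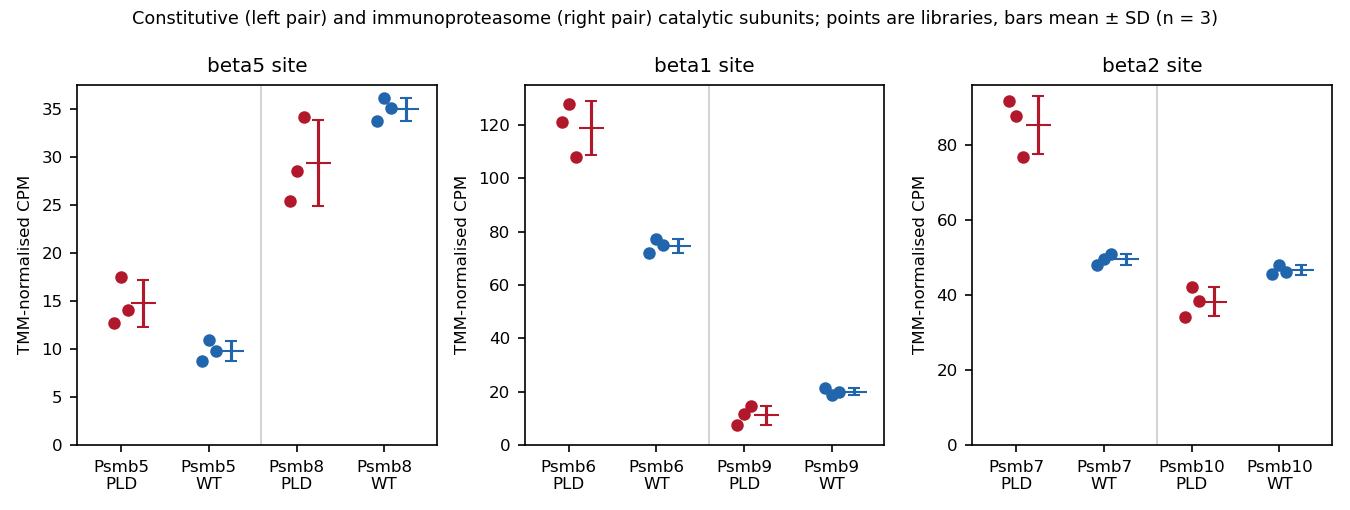
Level in CPM of the standard cutting subunits Psmb5, Psmb6 and Psmb7 and of the immune subunits Psmb8, Psmb9 and Psmb10, each immune gene beside the gene it replaces. Points are libraries and bars are means ± SD (n = 3), PLD left of WT. The standard genes lie higher in PLD, and of the immune genes only Psmb8 overlaps between groups.

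Psma8, the alpha subunit of the testis core, was the other member called lower. It had 4, 8 and 10 reads in PLD libraries, against 22, 28 and 20 reads in WT libraries. The groups were apart, but at 0.454 ± 0.165 CPM in PLD and 1.39 ± 0.224 CPM in WT (SD, n = 3 each) the gene was near the limit of detection. Its log2 fold change of -1.59 ± 0.36 is given as a description, since it entered the test through the 3 WT libraries alone.

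Of the 17 genes of the 19S cap 14 rose (82.4%, against 27.0% of all genes tested). Of the rest 0 fell (0%, against 28.4%) and 3 did not pass. The median log2 fold change of the cap was 0.50, against 0.66 for the 14 core genes, a difference that was not tested. All 6 ATPases, the ring of motors that unfolds the substrate, rose, with log2 fold changes from 0.42 to 0.61 and a median of 0.53. Psmc6 (ENSMUSG00000021832.8, mm10 chromosome 14, 45329788 to 45349705) had 143, 135 and 131 CPM in PLD, against 87.9, 89.5 and 90.4 CPM in WT. It was the highest of the ring, at 0.61 ± 0.09 (edgeR adjusted p = 9.17e-04). Psmc3 was the lowest, with 134, 146 and 144 CPM in PLD and 98.3, 114 and 105 CPM in WT (0.42 ± 0.10, edgeR adjusted p = 0.00864). The groups were apart for both genes. The other ATPases, Psmc1, Psmc2, Psmc4 and Psmc5, rose by 0.50, 0.50, 0.60 and 0.56.

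Of the 11 other cap subunits, which include the ubiquitin receptor Psmd4, the scaffolds Psmd1 and Psmd2 and the deubiquitinase Psmd14, 8 rose, 0 fell and 3 did not pass (at an unadjusted p under 0.05, 9 were higher and 0 lower, and 0 fell with DESeq2 or limma-voom). Psmd11, a lid scaffold (ENSMUSG00000017428.16, mm10 chromosome 11, 80428615 to 80473248), had 132, 125 and 125 CPM in PLD, against 63.9, 65.8 and 81.2 CPM in WT. It had the largest rise of the cap, 0.86 ± 0.12 (edgeR adjusted p = 7.61e-04), with WT library 3 above the other WT libraries and still far below PLD. The lid subunits Psmd12 and Psmd13 rose by 0.73 and 0.66. Psmd4, Psmd6 and Psmd8 rose by 0.51, 0.48 and 0.44. Among the 11 genes 72.7% were higher, against 27.0% of all genes tested, and 0% were lower, against 28.4%.

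Psmd7, the inactive partner of Psmd14 in the lid, had 89.3, 88.3 and 84 CPM in PLD, against 71.6, 83.5 and 70.7 CPM in WT. PLD library 3 and WT library 2 nearly touched, and the gene did not pass (0.21 ± 0.10, edgeR adjusted p = 0.105). Psmd14 and Psmd3 did not pass either (0.32 and 0.24, edgeR adjusted p = 0.094 and 0.0561), and Psmd3 passed without PLD replicate 1 (0.25, adjusted p = 0.0491). Psmd14 stood at 0.18 without WT replicate 1. The scaffolds passed by a narrow margin. Psmd1 rose by 0.40 ± 0.11 (edgeR adjusted p = 0.0166) and did not pass without WT replicate 1 (adjusted p = 0.0505) or WT replicate 3 (adjusted p = 0.0564). Psmd2 rose by 0.32 ± 0.10 (edgeR adjusted p = 0.0326). It did not pass without PLD replicate 1, PLD replicate 2, WT replicate 1 or WT replicate 3 (adjusted p = 0.0507, 0.0745, 0.104 and 0.0907).

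Summed over genes, the core and the cap were both higher in PLD. The summed level of the 14 core genes was 1155, 1144 and 996 CPM in PLD, against 648, 714 and 690 CPM in WT. That of the 17 cap genes was 1954, 1854 and 1743 CPM in PLD, against 1232, 1401 and 1344 CPM in WT. The core sum was 0.591, 0.617 and 0.572 of the cap sum in PLD, against 0.526, 0.509 and 0.514 in WT. Every PLD library had the higher ratio, and the difference was not given a test. The sums are not corrected for gene length, which moved with the comparison, as described below. With the length trend removed and centred, the median log2 fold changes were 0.47 for the core and 0.39 for the cap. In the main fit they were 0.66 and 0.50.

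Of the 5 genes of alternative caps, which open the core without ATP, 1 rose, 0 fell and 4 did not pass (at an unadjusted p under 0.05, 2 were higher and 0 lower, and 0 fell with DESeq2 or limma-voom). The share higher was 20%, below the 27.0% of all genes tested, and the share lower was 0%, against 28.4%. Psme1 and Psme2 encode the 11S activator, which interferon-gamma induces with the immunoproteasome. Psme1 had 100, 104 and 96.2 CPM in PLD, against 83, 86.2 and 90.4 CPM in WT, and Psme2 had 28.7, 27 and 28.2 CPM in PLD, against 21.7, 27 and 24.6 CPM in WT. Psme1 did not overlap and Psme2 did, and neither passed (0.21 ± 0.09 and 0.19 ± 0.12, edgeR adjusted p = 0.0713 and 0.187). Psme2b, a near-identical copy of Psme2 with which it can exchange reads, had 0.481, 0.609 and 0.899 CPM in PLD, against 1.24, 0.765 and 0.925 CPM in WT. Its groups overlapped and it did not pass (-0.54 ± 0.36, edgeR adjusted p = 0.237). Without PLD replicate 1 and without WT replicate 1 its values were -0.36 and -0.34.

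Psme3, the nuclear activator, was the only one of the 5 activator genes to pass, at 141, 115 and 108 CPM in PLD, against 86.1, 92.1 and 93.3 CPM in WT. Its groups were apart, with PLD library 1 highest, and it rose by 0.42 ± 0.12 (edgeR adjusted p = 0.0185). It did not pass without WT replicate 1 (adjusted p = 0.0555) or WT replicate 3 (adjusted p = 0.0506). Psme4, the large activator PA200, had 114, 130 and 129 CPM in PLD, against 120, 111 and 121 CPM in WT. The groups overlapped and the gene did not pass (0.09 ± 0.10, edgeR adjusted p = 0.466). Psmf1 encodes PI31, a protein first described as an inhibitor of the core. It had 55.4, 43.2 and 41.1 CPM in PLD, against 24.7, 28.8 and 23.4 CPM in WT. All PLD libraries were above all WT libraries, and it rose by 0.86 ± 0.15 (edgeR adjusted p = 0.00231).

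Of the 7 assembly chaperone genes 3 rose, 0 fell and 4 did not pass (at an unadjusted p under 0.05, 3 were higher and 0 lower, and 0 fell with DESeq2 or limma-voom). The share higher was 42.9%, against 27.0% of all genes tested, and the share lower was 0%, against 28.4%. Psmg4, a chaperone of the alpha ring, had 10.1, 10 and 8.93 CPM in PLD, against 5.65, 6 and 5.18 CPM in WT. Its groups were apart, and it rose by 0.79 ± 0.16 (edgeR adjusted p = 0.0046). Psmg2, another alpha ring chaperone, had 13.5, 10.7 and 7.67 CPM in PLD, against 10.6, 13 and 10.7 CPM in WT. Both the highest and the lowest value belonged to PLD, and the gene did not pass (-0.11 ± 0.22, edgeR adjusted p = 0.702; 0.09 without PLD replicate 3). Its partner Psmg1 did not pass (0.14, edgeR adjusted p = 0.552), and neither did Psmg3 (0.54, edgeR adjusted p = 0.134). Of the chaperones of the 19S base, Psmd10 (gankyrin) rose by 0.69 and Psmd9 by 0.49, and Psmd5 did not pass (0.30, edgeR adjusted p = 0.118). Psmd5 passed without WT replicate 2 (0.44, adjusted p = 0.0361).

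Genes that work with the complex without carrying a Psm name were read from lists set by their known roles. Of 14 other components and associated proteins 9 rose (64.3%, against 27.0% of all genes tested), 1 fell (7.14%, against 28.4%) and 4 did not pass, with a median log2 fold change of 0.40. The redox protein Txnl1 averaged 186 ± 5.67 CPM in PLD and 104 ± 5.12 CPM in WT (SD, n = 3 each) and rose by 0.84 (edgeR adjusted p = 2.98e-04). Akirin2, which brings proteasomes into the nucleus, rose by 0.65, and Zfand2a, an arsenite-inducible cap-binding protein, by 1.22. Ecpas, a large adaptor of the 26S complex, averaged 73.9 ± 9.72 CPM in PLD and 110 ± 3.62 CPM in WT (SD, n = 3 each) and was the one that fell, by 0.57 on the log2 scale (edgeR adjusted p = 0.00413). Beyond these 4 with the smallest p, the ubiquitin receptor Adrm1 and the small lid subunit Sem1, both parts of the cap, rose by 0.36 and 0.35. Pomp, the maturation factor of the core, did not pass (0.22, edgeR adjusted p = 0.0707). These last 3 were chosen after their values were seen.

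Among 16 genes of ubiquitin, its activating enzymes and shuttle factors, 6 rose (37.5%), 1 fell (6.25%) and 9 did not pass (median 0.22). The 4 with the smallest p were Sqstm1, an autophagy receptor that also binds ubiquitin chains (1.01), the polyubiquitin gene Ubb (0.73), the shuttle Ubqln4 (0.47) and the segregase cofactor Nploc4 (0.60). Ddi2, the protease that activates Nfe2l1, fell by 0.33 on the log2 scale (edgeR adjusted p = 0.0246). It was chosen after its values were seen. Among 12 regulators of proteasome genes 3 rose (25%, near the 27.0% of all genes tested), 1 fell (8.33%, against 28.4%) and 8 did not pass. The NF-Y subunits Nfyc and Nfyb rose by 0.56 and 0.50. Nfya, the remaining NF-Y subunit, went the other way and did not pass (-0.23, edgeR adjusted p = 0.0755). It averaged 52.9 ± 0.771 CPM in PLD and 62.1 ± 5.02 CPM in WT. The small Maf factor Mafk, a partner of Nfe2l1, rose by 0.48, and Foxo4 fell by 0.37. Nfe2l1 itself averaged 298 ± 6.58 CPM in PLD and 358 ± 26.2 CPM in WT (SD, n = 3 each) and did not pass (-0.27, edgeR adjusted p = 0.058). Nfe2l1 acts after cleavage of its protein, which RNA does not show.

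Interferon signalling and MHC class I peptide loading are the setting in which the immunoproteasome is known. Of 16 genes of this kind 0 rose, 9 fell and 7 did not pass (at an unadjusted p under 0.05, 0 were higher and 9 lower, and DESeq2 and limma-voom also called 0 and 9), with a median log2 fold change of -0.56. Of all genes tested 27.0% were higher and 28.4% lower. The list's median was -0.37 without PLD replicate 1. Both receptor chains of interferon-gamma had positive values and did not pass (Ifngr1 0.09 and Ifngr2 0.35, edgeR adjusted p = 0.544 and 0.222). Stat2 averaged 26.7 ± 2.73 CPM in PLD and 72.6 ± 4.52 CPM in WT (SD, n = 3 each) and fell by 1.45 on the log2 scale (edgeR adjusted p = 8.66e-05). Erap1, the peptide trimming enzyme, fell by 0.84, the receptor chain Ifnar2 by 0.90 and the transporter chain Tap2 by 0.74. Irf1 averaged 292 ± 81.5 CPM in PLD and 705 ± 116 CPM in WT and fell by 1.27. Irf1 was chosen after its values were seen, as the factor named above for these genes.

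Marker transcripts of several cell types differed between the same groups. The summed level of 12 cholangiocyte markers was 25761 to 33886 CPM in PLD and 8077 to 11661 CPM in WT, and all 12 rose, with a median log2 fold change of 1.61. That of 14 endothelial markers was 493 to 856 CPM in PLD and 5971 to 7802 CPM in WT, and all 14 fell, with a median of -3.39. That of 13 fibroblast and muscle markers was 1847 to 4798 CPM in PLD and 8705 to 14079 CPM in WT, with 10 lower and 1 higher. Of 20 leukocyte markers 15 were tested, 2 rose (13.3%, against 27.0% of all genes tested) and 4 fell (26.7%, against 28.4%). The sum of the 20 was 567 to 823 CPM in PLD and 520 to 597 CPM in WT. Csf1r made up much of that sum, and without it the sum was 300, 336 and 430 CPM in PLD, against 380, 463 and 439 CPM in WT. The list's median log2 fold change was -0.33, and -0.56 without PLD replicate 3. Of 12 hepatocyte markers 2 rose (16.7%, against 27.0%) and 5 fell (41.7%, against 28.4%). Their sum was 1998 to 6129 CPM in PLD and 1373 to 2399 CPM in WT. Alb made up most of it, with 1301, 5081 and 5503 CPM in PLD, against 1083, 1749 and 1885 CPM in WT, and did not pass. The hepatocyte median was -0.65, moving to -1.45 without PLD replicate 1, to -1.05 without WT replicate 1 and to -0.28 without WT replicate 2. No marker was at 0 in all PLD libraries. In bulk RNA, fewer cells of a type and less RNA per cell cannot be told apart. The part of cell content in the values of the proteasome and interferon genes was not tested.

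Within PLD the libraries were ordered in a repeated way. PLD library 1 was the highest of its group for 32 of the 49 tested members and PLD library 3 the lowest for 36. In WT, library 2 was the highest for 33 and library 1 the lowest for 33. The immunoproteasome sum ran the other way within PLD, at 67.2, 82.1 and 87.1 CPM in libraries 1 to 3, against 100, 103 and 101 CPM in WT. The endothelial sum had the same order in PLD, 493, 703 and 856 CPM, against 5971, 7802 and 7531 CPM in WT, and so had the leukocyte sum, 567, 765 and 823 CPM, against 520, 597 and 583 CPM in WT. The cholangiocyte sum had the opposite order in PLD, 33886, 28388 and 25761 CPM, against 10683, 8077 and 11661 CPM in WT. Across genes, PLD library 1 correlated with the other PLD libraries at r = 0.976 and 0.973 and these with each other at r = 0.991. WT library 1 stood apart in the same way (r = 0.971 and 0.98, against 0.988). With both first libraries left out, an alternative added after seeing the data, 32 members rose and 2 fell. Among the 15473 genes tested in that fit 4297 were higher and 4667 lower. The median was then 0.51 for the standard subunits, all 14 core genes still rose, and Psmb9 fell by 0.58 on the log2 scale (adjusted p = 0.01). The plot of sums by library shows these orders.

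**Figure D3:**
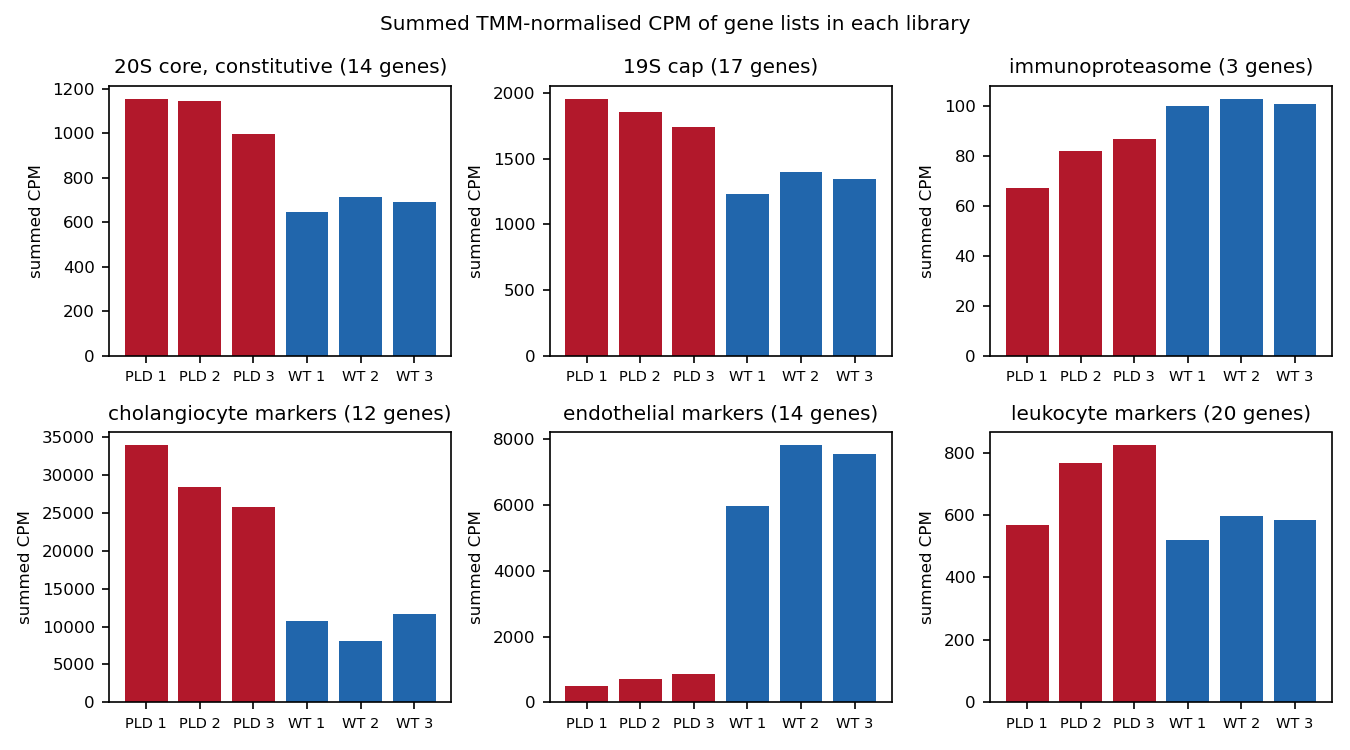
Summed level in CPM of the core genes, the cap genes, the immunoproteasome genes and the cholangiocyte, endothelial and leukocyte markers in each library, as bars, PLD libraries left of WT libraries. The core sum lies at 996 CPM or more in PLD and at 714 CPM or less in WT, and the immunoproteasome sum at 87.1 CPM or less in PLD and at 100 CPM or more in WT.

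Gene length moved with the comparison. Split by exon length into 5 bins of nearly equal size, all tested genes had median log2 fold changes of 0.30 in the shortest bin, then 0.12, 0.02 and -0.07, and -0.23 in the longest. Of the 31 standard subunits 10 lay in the shortest bin, 13 in the next and 0 in the longest. With the length trend removed and centred, the core genes had a median of 0.47 and 12 of 14 rose, and the cap genes had a median of 0.39 and 13 of 17 rose. Psmb5 and Psmb2 no longer passed (0.20 and 0.26, adjusted p = 0.355 and 0.0792), nor did Psmc1, Psmc5, Psmd10 and Psmg4 (0.28, 0.26, 0.39 and 0.33). Psma4, Psma5, Psma6, Psmb4 and Psmb6 still passed at smaller values (0.30, 0.46, 0.32, 0.38 and 0.44). Psmb10 passed as lower (-0.54, adjusted p = 0.00425), and Psme4 passed as higher (0.27, adjusted p = 0.0395). Psmd3 and Psmd5 also passed as higher (0.30 and 0.45). Among all 15334 genes tested 4212 were higher and 4098 lower with this correction. Without centring, which raised the median of all genes by 0.184 and made 61.1% of all calls rises against 48.7%, 35 members rose and 3 fell. The plot of fold change against exon length shows the standard subunits above the median of all genes in their bin, except Psmd7.

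**Figure D4:**
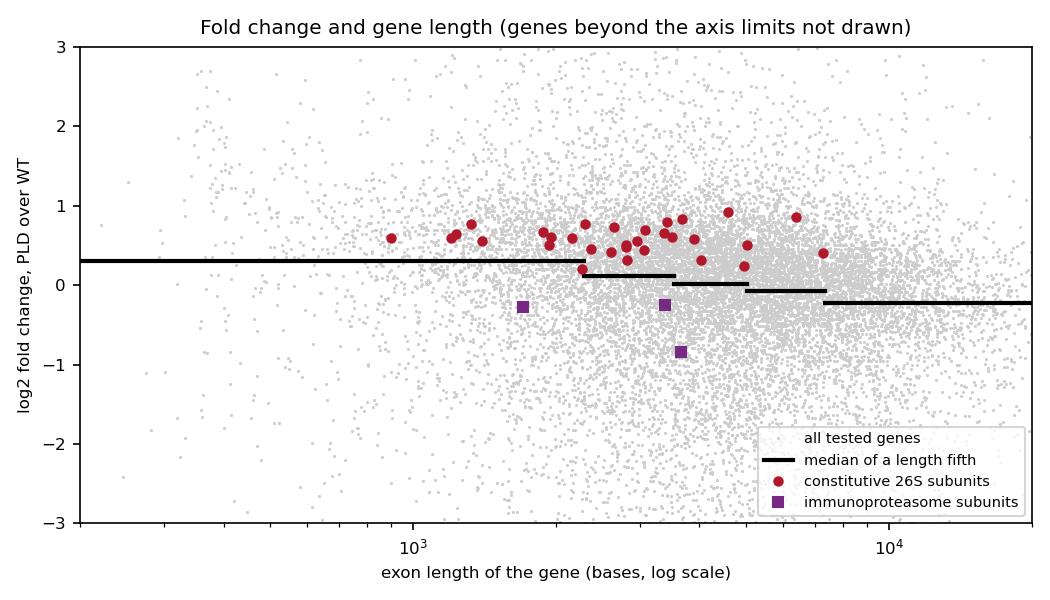
Log2 fold change, PLD over WT, against exon length in bases on a log axis, for the standard core and cap genes (circles), the immunoproteasome genes (squares) and all tested genes within the axis limits (grey), with the median of all tested genes in each of 5 bins of length (lines). The medians of all genes run from 0.30 in the shortest to -0.23 in the longest bin, and the 31 standard subunits lie at 0.21 or above.

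The level per kilobase of exon allowed the subunits to be set beside each other. In PLD the standard subunits ran from 8.16 CPM per kilobase for Psmb3 to 88.4 for Psma6, and in WT from 4.77 for Psmb3 to 56.6 for Psma6. The 4 lowest averages over all libraries belonged to Psmb3, Psma3, Psma5 and Psmb5, at 8.16, 8.17, 13 and 16.4 CPM per kilobase in PLD, against 4.77, 5.46, 7.61 and 10.9 in WT. Each of these 4 has at least 1 near-identical copy elsewhere in the annotation (95% identity over at least 200 bases), 3 for Psmb3, 4 for Psma3, 2 for Psma5 and 1 for Psmb5. Reads that fit several places are left out by default in the counting program, so their levels are uncertain. Of the standard subunits with a match of that identity and length to another gene 11 of 11 rose (median log2 fold change 0.59). Of those without one 17 of 20 rose (median 0.57). Psmb7 and Psmd13 match Nek6 and Sirt3, and share 11.8% and 10.1% of their exon bases with another gene. Such matches may be overlapping exons rather than copies, so the split does not cleanly part copied genes from the rest. Exon length here is the union over all annotated transcripts, which is longer than the transcript in use for many genes.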

How the data were processed

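The authors deposited raw read counts per gene, counted by featureCounts 1.6.0 against GENCODE vM25 gene models (mm10), per the file headers, which name no option for strand, pairs, multi-mapping reads or overlapping genes. Per the submitters' processing notes, the other tools were STAR 2.7.4a, SAMtools 1.12 and DESeq2 1.26.0. Symbols came from GENCODE vM21 by gene ID. Libraries held 15768561 to 16710548 reads counted to genes, so 3 counts equal 0.18 to 0.19 CPM before scaling by TMM factors. Counting error only is covered by that floor.

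PLD was compared with WT by edgeR 4.0.16 (R 4.3.3): filterByExpr kept 15334 genes (99.8% of reads or more), TMM factors were 0.922 to 1.04, and the quasi-likelihood F test was adjusted by Benjamini-Hochberg at 0.05. SE is the log2 fold change divided by the square root of F. The functions were tested on simulated data whose changes were larger than those of the standard subunits, so changes as small as these were not tried. No replicate pair agreed within sampling noise (chi-square per degree of freedom 9.72 to 63.9). Alternatives used DESeq2 1.42.0, limma 3.58.1 (voom), other scalings and filters, a robust fit, a replicate block, a loess correction for gene length (span 0.5), each library left out and a minimum fold change. Members, classes, lists and these alternatives were chosen with earlier results of these data known. Values in every library are given for cutting subunits, activators, the inhibitor and the extremes of each class, and the 4 genes of smallest p are named from each partner list, with a few others named for their role or after their values were seen. The symbol of Paaf1, on a list, was not matched, and some list genes are not reported here by name.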

Additional observations from a re-analysis of the deposited data

How the results depend on the processing

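Across 18 alternatives (all except the minimum fold change), 26 to 35 members rose and 2 or 3 fell, and Psmb9 passed as lower under each (log2 fold change -1.06 to -0.58, highest adjusted p = 0.0489). Under the same 18, 3173 to 5443 genes were higher and 3471 to 4667 lower. The falls under all 18 included the low-count gene Psma8, whose call is no support for a fall. With a minimum log2 fold change of 1, 0 members rose and 1, again Psma8, fell, and 1413 genes were higher and 2775 lower. Leaving out 1 library gave 28 to 34 members higher and 2 to 3 lower, 3173 to 4183 genes higher and 3626 to 4562 lower. The log2 ratios then ran from -0.98 to -0.70 for Psmb8 over Psmb5, from -1.84 to -1.28 for Psmb9 over Psmb6 and from -1.15 to -0.94 for Psmb10 over Psmb7. Members that never passed changed sign in places. Psme2 stood at -0.05 with the centred length correction, also with the replicate block. Psmg1 stood at -0.16 and -0.01 with the length correction centred and not centred, at -0.18 with the block added and between -0.06 (without PLD replicate 2) and 0.26 (without PLD replicate 1) when 1 library was left out. Psmg2 then ran from -0.31 without PLD replicate 1 to 0.09 without PLD replicate 3. The cause was not tested. With the length correction added after seeing the data, centred or not, the ratio of Psmb8 over Psmb5 was -0.50.

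Replicates share numbers across groups. The deviations of same-numbered libraries from their group means correlated at 0.156, 0.0363 and 0.0613, against -0.123 to 0.122 for libraries of different number. PLD library 2 correlated best with WT library 3 (0.122), and PLD library 3 with WT library 2 (0.099). With 3 libraries in each group such values cannot decide whether the libraries were paired. The numbers were not taken as pairs in the main fit. With the replicate block 33 members rose and 2 fell, 3920 genes were higher and 4242 lower, and the ratios were -0.84, -1.56 and -1.07. In the interferon list 1 gene then rose. With the block and the length correction together, 26 members rose and 3 fell, and 3998 genes were higher and 3971 lower. Depth limits Psma8, Psme2b and Psmb11, which had few reads.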
